A study of Monodelphis domestica with 8 samples.

Results

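H3K4me3 peaks on chromosomes 1 to 8 that carry neither H3K9Ac nor H3K27me3, and that lie less than 5 kb from an H3K4me3 peak with H3K9Ac, numbered 1299 in the brain of opossum fetuses. They made up 5.88% (exact 95% interval 5.57% to 6.20%) of the 22086 autosomal H3K4me3 peaks and 13.4% (12.7% to 14.0%) of the 9726 autosomal H3K4me3 peaks without the other 2 marks, and the whole list held 23987. The members were chosen from the deposited peak positions alone. A peak counted as carrying a mark when the 2 peaks had 1 bp or more in common, and the distance between peaks was counted edge to edge. Their overlaps and their distance from an acetylated peak are therefore descriptions of the choice, and none of the values below carries a test. The acetylated H3K4me3 peak nearest to a member is called its neighbour. Such a peak could also carry H3K27me3.

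The lists came from chromatin immunoprecipitation and sequencing of the brain of female fetuses of Monodelphis domestica, the gray short-tailed opossum, taken on embryonic day 13. Chromatin was cut with micrococcal nuclease, so fragments derive from nucleosomes. Each of the 8 libraries, 2 per mark, held chromatin pooled from 2 sisters, in one case from an LL2 mother and an LL2 father and in the other from an LL1 mother and an LL2 father. Both libraries of a mark share 1 list, so no replicate values exist, and the 95% intervals printed here cover the counting of peaks only and treat neighbouring peaks as independent. The lists give no read counts, and the sequencing depth behind them is unknown. Brain is a mixture of cell types, so marks on neighbouring peaks need not come from the same cells. No treatment or time was compared in this series. The 2 crosses could not be compared either, since both libraries of a mark share 1 list.

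H3K4me3 is placed by the SET1 and MLL methyltransferase complexes on nucleosomes next to transcription start sites, above all at CpG islands. H3K9Ac is placed by acetyltransferases such as GCN5 and PCAF and is usually found at promoters in use. H3K27me3 is the product of Polycomb repressive complex 2. Promoters can hold H3K4me3 without measurable acetylation, and H3K4me3 can spread over several nucleosomes on both sides of a start site, so a peak of this mark does not by itself show transcription. Positions follow the deposited lists. Their genome build is not stated in those sources that were used, and no genome in those coordinates was used here. Regions therefore carry neither gene names nor sequence, and the labelled tissue was not checked against marker genes.

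Most members lay within 1 kb of their neighbour. The median gap was 551 bp (95% interval 483 to 633 bp), the middle 50% of gaps ran from 175 to 2049 bp, and all lay between 1 and 4999 bp. Of the 1299 members, 624 had a gap under 500 bp and 177 one from 500 to 1000 bp. Counts per 500 bp step then fell slowly, with 83 members between 1000 and 1500 bp and 41 in the last step below 5 kb. Beyond the limit the same kind of peak went on at a like level, with 45 peaks between 5000 and 5500 bp and a mean of 37.6 per step (lowest 25, highest 52) out to 20 kb. The first step held 16.6 times that mean and the second 4.70 times. Within the first 500 bp the members were again more numerous at the short end, with 206 under 100 bp and 63 between 400 and 500 bp. The boundary of 500 bp used below to divide close members (624) from spaced members (675) was chosen after these counts were seen.

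**Figure D1:**
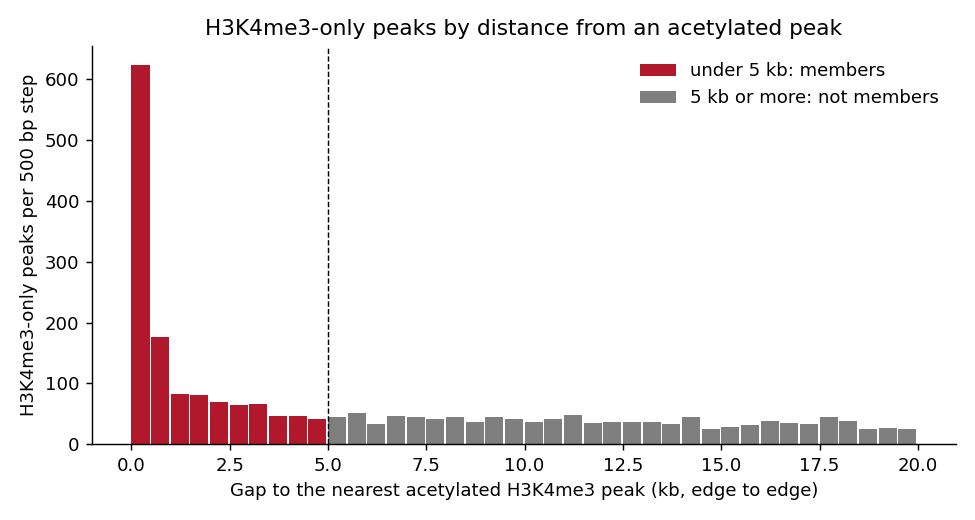
H3K4me3-only peaks on chromosomes 1 to 8 (number per 500 bp step, y axis) by their gap to the nearest acetylated H3K4me3 peak (kb, x axis), with members in red and peaks at 5 kb or more in grey. The first bar holds 624 members and the second 177, and from 5 to 20 kb the bars stay between 25 and 52.

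Short gaps were not limited to members. Among neighbouring autosomal H3K4me3 peaks less than 5 kb apart, 50.4% of 1239 pairs of an acetylated peak and an H3K4me3-only peak had a gap under 500 bp. The figure was 48.1% of 987 pairs of 2 H3K4me3-only peaks and 41.7% of 521 pairs of 2 acetylated peaks. Peaks with H3K27me3 but no H3K9Ac had such a gap in 44.1% of 213 pairs with an H3K4me3-only peak, in 42.3% of 447 pairs with one another and in 34.8% of 198 pairs with an acetylated peak. Seen from the single peak, 13.4% of H3K4me3-only peaks had an acetylated H3K4me3 peak under 5 kb away, against 7.33% (6.42% to 8.32%) of 3003 peaks with H3K27me3 but no H3K9Ac. Of the acetylated peaks themselves, 11.3% (10.6% to 11.9%) had another acetylated peak within that distance. For an acetylated peak under 500 bp away the shares were 6.42% (5.94% to 6.92%) for H3K4me3-only peaks, 2.26% (1.76% to 2.86%) for those with H3K27me3 and 4.62% (4.20% to 5.06%) for acetylated peaks. The shares of H3K4me3-only and acetylated peaks were thus closer to each other than to that of peaks with H3K27me3, and these differences were not tested.

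The limit of 5 kb ran through a continuous series of peaks. The member with the longest gap, at chr6:208536208-208537508, lay 4999 bp from its neighbour and had a width of 1301 bp and an H3K4me3 score of 128.3. The score is the authors' own value for each peak, is at least 50 in this list and is used only within a list. The next 2 members inside the limit were chr3:459195481-459197410, with a gap of 4987 bp and a score of 140.9, and chr2:270701673-270704374, with a gap of 4968 bp and a score of 571.7. Just outside it lay chr6:194238101-194240975, with a gap of 5007 bp and a score of 1134.05. The next 2 outside were chr2:82226163-82227364, with a gap of 5018 bp and a score of 118.5, and chr6:178313546-178314874, with a gap of 5023 bp and a score of 135.8.

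At the other end, 4 members were separated from their neighbour by a single base. The first 3 in chromosome order were chr1:34797924-34798656, chr1:454485263-454487722 and chr3:19725015-19726405. The one at 34797924 had a score of 56.4, against 141.4 for its neighbour, and the one on chromosome 3 had 107.6, against 488.7. The member at 454485263 was the stronger of its pair, with a score of 810.8 against 325.0. The nearest H3K9Ac peak lay 578, 1007 and 165 bp from these members in the order named, and an H3K27me3 peak lay 371 bp from the first.

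Members were narrow and weak for H3K4me3 peaks. Their median width was 1399 bp (1362 to 1444 bp), against 2723 bp (2625 to 2803 bp) for the 1222 acetylated H3K4me3 peaks that had a member less than 5 kb away. The median score was 124.1 (115.4 to 132.6) for members and 722.7 (659.3 to 759.8) for those acetylated peaks. Of the members, 42.6% scored below 100, against 4.09% of the acetylated peaks beside them. H3K4me3-only peaks at 5 kb or more from an acetylated peak, 8427 in number, were closer to the members than acetylated peaks were. Their median width was 1516 bp (1497 to 1534 bp) and their median score 160.2 (154.7 to 165.7), so that the members had the lower medians of the 2 groups and the intervals did not overlap. A score below 100 was found in 34.7% (33.7% to 35.7%) of the distant peaks, and the corresponding interval for the members was 39.9% to 45.3%.

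Close and spaced members had similar medians. The median width was 1403 bp (1350 to 1486 bp) in close members and 1396 bp (1343 to 1462 bp) in spaced ones. The median score was 128.7 (120.3 to 146.8) in close members and 117.1 (101.2 to 128.3) in spaced ones, and the intervals overlapped. Across the 1299 members the score followed the width closely (Spearman rho 0.84), and its rho with the gap was -0.01. These are descriptions across peaks of a single list, in which width and score come from the same call.

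**Figure D2:**
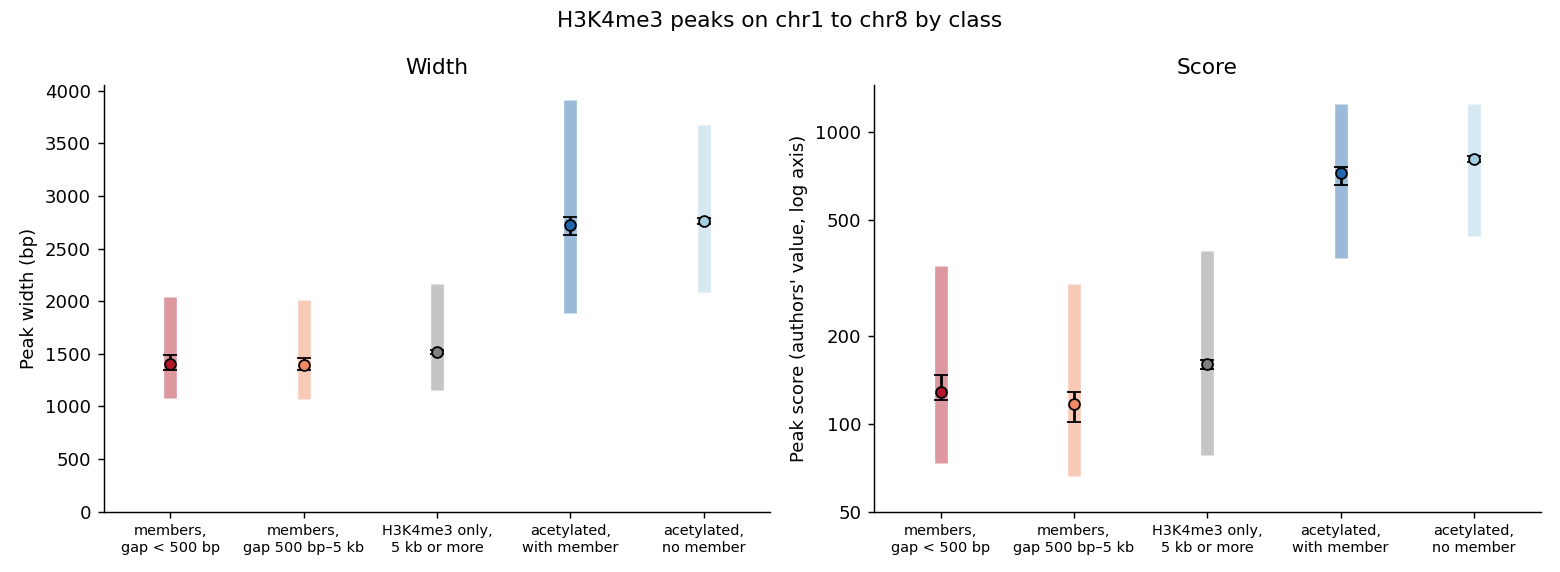
Width (bp, left) and score (authors' value, log axis, right) of H3K4me3 peaks on chromosomes 1 to 8 in 5 classes. Points are medians with 95% order-statistic intervals and bars span the middle 50% of peaks. Both kinds of member, with median widths of 1403 and 1396 bp, sit just below distant H3K4me3-only peaks (1516 bp) and far below acetylated peaks with (2723 bp) and without a member (2761 bp).

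H3K9Ac became more frequent with H3K4me3 score over the whole autosomal list, and members became rarer. When all autosomal H3K4me3 peaks were divided into 5 equal classes by score, the lowest class held 526 members, and the next ones 334, 235, 148 and, in the highest, 56. Members were 11.9% of all peaks in the lowest class and 1.27% in the highest, while 8.49% and 85.4% of the peaks in those classes carried H3K9Ac. Among H3K4me3-only peaks the share that lay beside an acetylated peak changed much less. It was 15.8% (14.6% to 17.1%) in the lowest class, 12.6%, 11.9% and 11.8% in the next 3, and 10.9% (8.34% to 13.9%) in the highest. Weak H3K4me3-only peaks were thus members somewhat more often than strong ones. The H3K9Ac list ends at a score of 50, and acetylation below that limit cannot be seen in it.

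The members were usually the weaker peak of the pair. Of 1299 members, 1076 (82.8%, 80.7% to 84.8%) had a lower score than their neighbour and 1025 (78.9%, 76.6% to 81.1%) were narrower. Distant H3K4me3-only peaks were also weak, with a median score of 160.2 against 798.1 for all acetylated peaks. How often H3K4me3-only peaks are outscored by acetylated peaks that do not lie beside them was not computed. The share is therefore not shown to be particular to these pairs. The score of a member was at the median 0.217 times (0.188 to 0.252) that of its neighbour, and the width 0.522 times (0.497 to 0.556). For 431 members (33.2%) the score was under 0.1 of that of the neighbour. The shares were alike at short and long distance, with 81.9% (78.6% to 84.8%) of close members and 83.7% (80.7% to 86.4%) of spaced members outscored. Across pairs, scores of members and neighbours were weakly and inversely ordered (Spearman rho -0.20, n = 1299), with a rho of -0.29 for close pairs (n = 624) and -0.13 for spaced pairs (n = 675). A neighbour can serve several members and both scores come from the same list, so the rho is a description only.

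**Figure D3:**
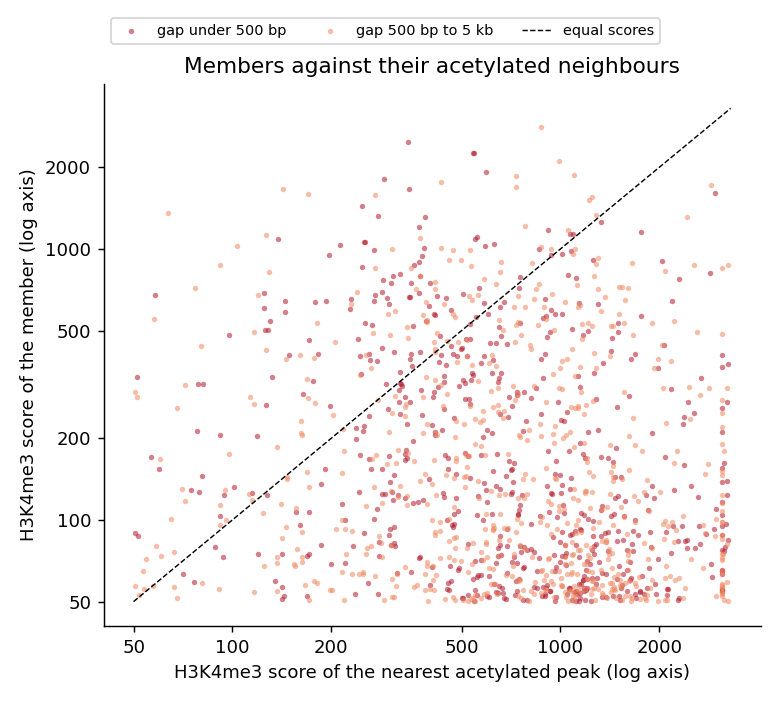
H3K4me3 score of each of the 1299 members (y axis, log) against that of its nearest acetylated H3K4me3 peak (x axis, log), in dark red for gaps under 500 bp and orange for gaps from 500 bp to 5 kb. The dashed line marks equal scores, and 1076 members lie below it and 223 above it.

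In the remaining 223 pairs (17.2%, 15.2% to 19.3%) the peak without H3K9Ac was the stronger one. These members had a median score of 586.6 and a median width of 2447 bp, beside neighbours with a median of 271.3 and 1640 bp. In the other 1076 pairs the members had medians of 99.7 and 1306.5 bp and the neighbours 916.7 and 3042 bp. The pairs were divided by the scores themselves, so these levels follow from the division. It also selects neighbours weak in H3K4me3, and H3K9Ac was rarer among weak H3K4me3 peaks, so values of H3K9Ac on the neighbours are not independent of it. The highest-scoring H3K9Ac peak of the neighbour had a median score of 67.5 (65.0 to 75.1) where the member was the stronger and 91.2 (86.8 to 97.8) where it was the weaker. A second H3K9Ac peak on the neighbour was found in 2.69% (0.994% to 5.76%) of pairs with a stronger member and in 18.0% (15.8% to 20.5%) of the others. Neighbours in the first set were also weaker and narrower in H3K4me3, and the part of either in this difference was not tested.

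The 5 members with the highest scores all belonged to this kind of pair, which a pick by the member's own score favours. The highest, chr4:367692479-367696645, was 4167 bp wide with a score of 2828.25, and its neighbour 2623 bp away scored 871.7 and carried 1 H3K9Ac peak with a score of 52.1, close to the lowest value of that list. On chromosome 5 the member at chr5:4939007-4946136, 7130 bp wide, scored 2474.22, and 81 bp from it lay a neighbour with a score of 343.9. Its nearest H3K9Ac peak was 164 bp away. The member at chr4:97987215-97993304 scored 2255.06 and lay 66 bp from a neighbour with a score of 540. At chr2:226271814-226280015 the widest of all members, with 8202 bp, scored 2252.15 beside a neighbour 117 bp away with 546.2, and 97 bp separated it from the nearest H3K9Ac peak. The fifth, chr4:231603068-231607321, had a score of 2116.02 and a neighbour with 987.7 at a distance of 636 bp, whose H3K9Ac peak had the score 218.7, the highest among these 5.

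The widest members after the 8202 bp one were 7909, 7130, 7068 and 6987 bp long. The one of 7909 bp, chr7:169047971-169055879, had a score of 1581.07 and a neighbour 1126 bp away with 272.1. The one of 7068 bp, chr2:197223724-197230791, had a score of 1669.08, and its neighbour 3442 bp away had 142.2. Only the fifth, chr6:85382722-85389708, was outscored, with 982.4 against 1077.58 across a gap of 424 bp. Score followed width across members, so a pick by width also favours members that outscore their neighbour. By the ratio of scores the first was chr4:364221626-364226278, with 1351.12 against 63.6 for its neighbour, 21.3 times as high, at a gap of 550 bp. The peak at 197223724 on chromosome 2 came next at 11.7 times. It was followed by chr1:145897182-145900048 at 11.6 times, chr4:383082482-383085754 at 9.90 times and chr8:34745513-34748134 at 9.59 times. In all, 98 members had over 2 times the score of their neighbour and 21 over 5 times.

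Few members reached the level that is usual for acetylated peaks. The median score of the 9357 acetylated autosomal H3K4me3 peaks was 798.1, and 84 members (6.47%, 5.19% to 7.94%) scored at least as high, against 709 (8.41%, 7.83% to 9.03%) of the distant H3K4me3-only peaks. Of all 5670 autosomal H3K4me3 peaks at or above this score, 82.6% carried H3K9Ac. The 84 members had a median width of 3263.5 bp, 39 of them lay under 500 bp from their neighbour, and 65 outscored it. They were chosen by a high score, so the last count follows largely from the choice.

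The acetylated side of the pair was described next. Of the 9357 acetylated peaks, 1222 (13.1%, 12.4% to 13.8%) had at least 1 member less than 5 kb away. Their median H3K4me3 score was 722.7 (659.3 to 759.8), against 807.2 (791.2 to 824.6) for the 8135 acetylated peaks without a member, and the median widths of 2723 bp (2625 to 2803 bp) and 2761 bp (2734 to 2794 bp) had overlapping intervals. The H3K9Ac peaks on them had a median score of 82.2 (78.1 to 86.2) beside a member and 92.0 (90.7 to 93.5) elsewhere, with median widths of 1012.5 bp (985 to 1047 bp) and 1078 bp (1064 to 1090 bp). Acetylated peaks beside a member thus had slightly lower medians of both marks. Of those beside a member, 14.5% (12.6% to 16.6%) held 2 or more H3K9Ac peaks, against 12.7% (11.98% to 13.4%) of those without one, with overlapping intervals. A count of 3 or more was found in 39 peaks beside a member (3.19%, 2.28% to 4.34%) and in 1.28% (1.05% to 1.55%) of the others. The mean number per H3K4me3 peak was 1.18 beside a member and 1.14 elsewhere. H3K27me3 was present on 5.16% (3.98% to 6.55%) of acetylated peaks beside a member and on 7.14% (6.59% to 7.72%) of the others.

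Most acetylated peaks of this kind had a single member. A count of 1 was found for 1084 (88.7%), 117 had 2 and 21 had 3 or more, and members stood on both sides of 64 (5.24%). Members lay to the left of their neighbour, towards lower coordinates, in 668 cases and to the right in 631, a near-equal division (51.4%, 48.7% to 54.2%, on the left). In 1205 cases (92.8%) the neighbour was the next H3K4me3 peak along the chromosome. In the other 94 cases another H3K4me3 peak lay in the gap, and the first such peak was itself a member in 91. Only 39 members (3.002%, 2.14% to 4.08%) had an acetylated peak under 5 kb away on both sides.

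The acetylated peak with the most members was chr2:233115832-233131950. It was 16119 bp wide, had a score of 3100, carried 4 H3K9Ac peaks and no H3K27me3, and had 5 members around it. Before it lay members of 1735, 1169 and 909 bp and after it members of 789 and 1537 bp, with scores of 151.8, 54.4, 63.2, 55.7 and 84.4 in the same order and gaps from 305 to 2526 bp. On chromosome 6 the peak chr6:18172167-18181818, 9652 bp wide with a score of 3100 and 3 H3K9Ac peaks, had 4 members with scores from 52.5 to 485.1, of which the strongest was 4788 bp wide. The third of these peaks was of another kind. The acetylated peak at chr2:514339137-514340193 was only 1057 bp wide with a score of 162.5, and of its 4 members the one at 514344454 was wider, with 2401 bp, and stronger, with 206.7. The other 3 had scores of 70.2, 73.1 and 90.1. The score of 3100 recurred exactly on other wide acetylated peaks, and the sources used do not say why. It entered the score ratios above as printed.

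H3K9Ac usually ended inside the neighbour, short of the edge that faces the member. The nearest H3K9Ac peak lay at a median of 1641 bp (1513 to 1765 bp) from the member, with 733.5 bp for close and 2920 bp for spaced members. This distance exceeded the gap between the 2 H3K4me3 peaks by a median of 596 bp (548 to 644 bp). An H3K9Ac peak stood under 200 bp away from 70 members (5.39%, 4.22% to 6.76%) and under 1000 bp away from 449 (34.6%). In 86 pairs (6.62%) the H3K9Ac peak of the neighbour reached past its edge into the gap. H3K9Ac peaks without H3K4me3 were rare near members. Such a peak lay under 5 kb away from 17 members (1.31%, 0.764% to 2.09%), against 1.104% (0.892% to 1.35%) of distant H3K4me3-only peaks.

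With the pairs turned so that the neighbour lay on the positive side, H3K9Ac was most frequent 1100 bp past the facing edge of close members, where 58.8% had an H3K9Ac peak. For spaced members the highest value was 27.7%, at 3900 bp. On the side away from the neighbour H3K9Ac stayed at or below 1.12% for close and 1.04% for spaced members within 5 kb, and the position 5000 bp back from the facing edge lay in an H3K4me3 peak in 4.97% and 5.33%. The nearest acetylated peak defined the positive side, so the difference between the sides is part of the choice. Within the neighbour, the H3K9Ac peak nearest to the member had its centre in the part facing it in 56.2% of pairs (53.4% to 58.9%). That measure favours the near side where a neighbour holds several H3K9Ac peaks. Among the 1099 pairs whose neighbour held 1 H3K9Ac peak the share was 51.1% (48.1% to 54.1%), and with the highest-scoring H3K9Ac peak of each neighbour it was 50.2% (47.4% to 52.9%). Both of these intervals include 50%, so a lean of acetylation towards or away from the member was not detectable with these measures.

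**Figure D4:**
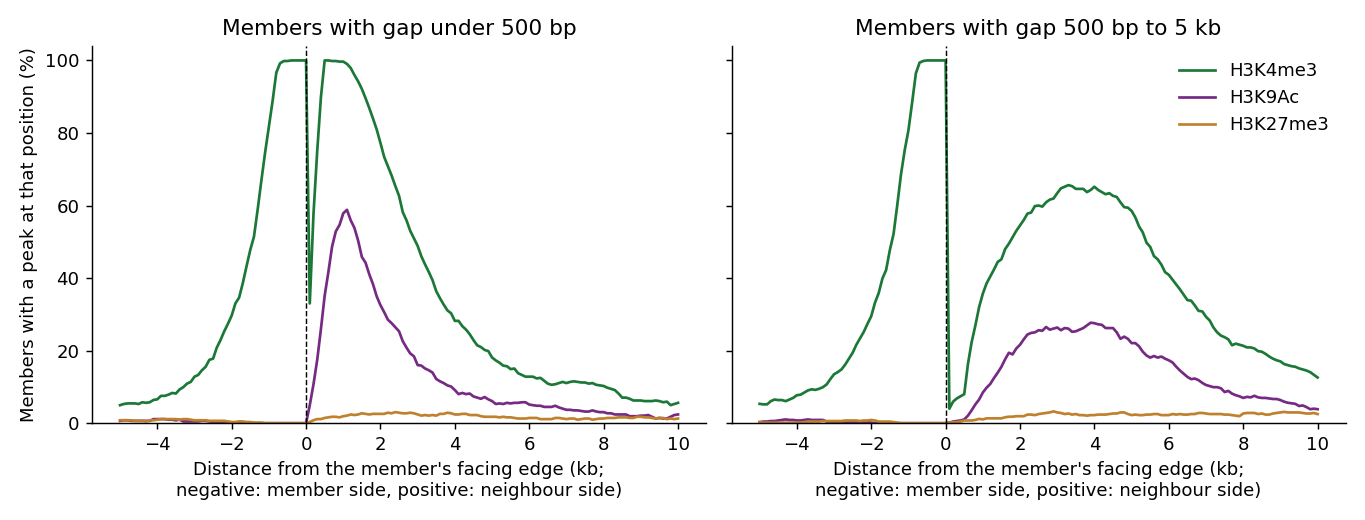
Share of members (%, y axis) with an H3K4me3, H3K9Ac or H3K27me3 peak at each distance from the member's edge that faces its neighbour (kb, x axis, neighbour to the right), for gaps under 500 bp (left) and from 500 bp to 5 kb (right). H3K9Ac is highest at 1100 bp for close members (58.8%) and at 3900 bp for spaced ones (27.7%), and is absent inside the members by the rule.

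Few members had a repressive mark nearby, and the rule itself had removed peaks that overlap H3K27me3. Of all 22086 autosomal H3K4me3 peaks, 4368 (19.8%) overlapped H3K27me3 or had it under 5 kb away, and 3647 of these overlapped it. Among the 1222 acetylated peaks with a member beside them the count was 92 (7.53%), of which 63 overlapped it. Most of both counts were thus overlaps, which the rule excludes for members, so these shares are not comparable with that of members. An H3K27me3 peak lay under 5 kb away from 82 members (6.31%, 5.05% to 7.78%), against 5.60% (5.12% to 6.11%) of distant H3K4me3-only peaks, with overlapping intervals, and the median distance to H3K27me3 was 190 kb. The neighbour itself carried H3K27me3 in 73 pairs (5.62%, 4.43% to 7.01%). H3K9me3, the mark of constitutive heterochromatin, was not used by the rule. It met a single member, chr1:57584121-57585663, which had a score of 92.8 and lay 154 bp from its neighbour. This is 0.0770% (0.00195% to 0.428%) of members, against 0.249% (0.154% to 0.381%) of distant H3K4me3-only peaks. Counted under 5 kb, H3K9me3 lay near 5 members (0.385%) and near 0.463% of the distant peaks. The autosomal H3K9me3 list has 699 peaks, so few overlaps can occur in any class.

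Members were found on all 8 autosomes and were most frequent on chromosome 2. There they made up 317 of 1919 H3K4me3-only peaks (16.5%, 14.9% to 18.3%), against 12.6% (11.9% to 13.3%) on the other 7 autosomes together, where the lowest value was 10.8% on chromosome 7 and the highest 13.3% on chromosome 1. On chromosome 2 a member lay beside 16.5% (14.8% to 18.3%) of acetylated peaks, against 12.3% (11.5% to 13.0%) on the others. With all classes of H3K4me3 peak pooled, peaks also lay closer to one another there. Another H3K4me3 peak was under 5 kb away from 34.0% of all H3K4me3 peaks on chromosome 2 and from 25.9% to 29.1% on the other autosomes. An acetylated peak had another acetylated one within that distance in 15.1% of cases on chromosome 2 and in 7.48% to 12.3% elsewhere. For the H3K4me3-only peaks that are not members, the share with any H3K4me3 peak under 5 kb away was 23.5% (21.4% to 25.6%) on chromosome 2, which hardly differed from the 23.0% (19.95% to 26.2%) of chromosome 8, and lay between 17.9% and 21.7% on the remaining 6. The difference between chromosomes was not tested. The members of chromosome 2 had a median score of 117.1, a median width of 1362 bp and a median gap of 628 bp. On the other 7 autosomes together these medians were 125.6, 1416.5 bp and 529.5 bp, and these differences were not tested either.

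**Figure D5:**
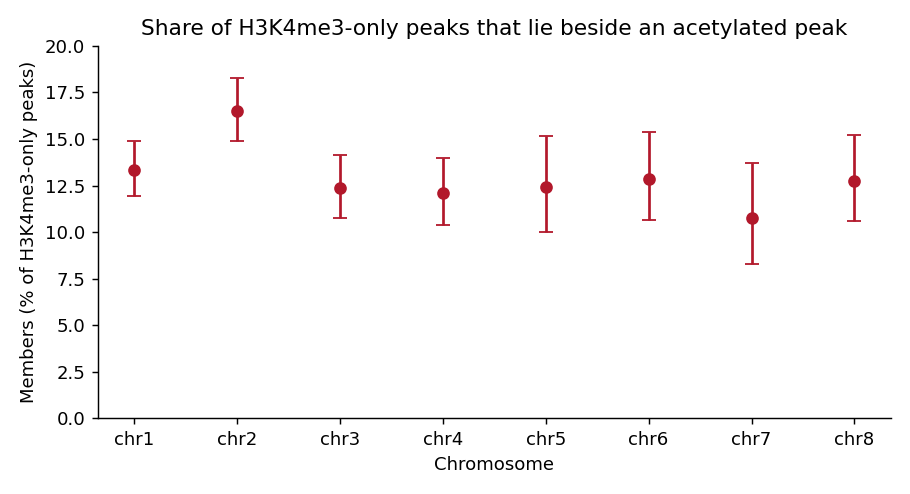
Members as a share of H3K4me3-only peaks (%, y axis) on each autosome (x axis), with exact 95% intervals. Chromosome 2 is at 16.5% and the other 7 lie between 10.8% and 13.3%.

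Members occurred in 811 bins of 1 Mb, 27.5% of the 2950 bins with an H3K4me3 peak. Of these bins 520 held 1 member, while 105 held 3 or more and together accounted for 407 members. At least 5 members were found in 20 bins, of which 12 were on chromosome 2, 4 on chromosome 3 and 1 each on chromosomes 1, 4, 5 and 6. The bin with the most, 9 members among 46 H3K4me3 peaks, began at 255 Mb on chromosome 2. The bins at 190, 197 and 494 Mb of the same chromosome held 8 each, among 34, 39 and 64 H3K4me3 peaks. Counts per bin are not corrected for the density of H3K4me3 peaks. These bins were named after their values were seen. The share of members that were outscored by their neighbour ran from 74.7% (64.0% to 83.6%) on chromosome 5 to 88.6% (80.9% to 94.0%) on chromosome 6, so that the weaker peak of the pair was most often the member on each autosome.

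The number of members was lower when close H3K4me3 peaks were counted as a single peak. Of the 1299 members, 801 (61.7%, 59.0% to 64.3%) lay less than 1000 bp from their neighbour. When H3K4me3 peaks less than 1 kb apart were joined before the same rule was applied, 446 members were found among 19899 autosomal peaks. Their median gap was 2609.5 bp, their median width was 1529 bp, and 82.5% were outscored. Joining removes short gaps by construction, and whether the authors' peak calling had split single regions was not tested. A joined peak took the highest score of its parts, so the share outscored in this setting also depends on the joining. With only the top-scoring 50% of peaks of every list, the rule gave 254 members, of which 66.1% were outscored. The weaker H3K9Ac and H3K27me3 peaks were dropped there too. These members can therefore overlap a dropped peak and need not be among the 1299.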

How the data were processed

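Histone marks were profiled by ChIP-seq, and the authors deposited 1 peak list per mark, with the chromosome, start, end and score of each peak. Per the submitters' processing notes, the tools included CASAVA 1.7, the aligner Bowtie 1.1.2 and the peak caller MACS 1.0.1. The sources used do not state the control, the threshold, the formula of the score or how both libraries were combined. A score deposited by the authors is a value per peak and was compared only within a list. Printed starts count from 1. No gene annotation was used, since the one at hand belongs to a different assembly.

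Overlap meant at least 1 bp in common, and members, neighbours and gaps were found with Python 3.11.15, numpy 2.4.6 and pandas 2.3.3. Exact binomial intervals of shares and order-statistic intervals of medians (95%) came from scipy 1.17.1, and figures from matplotlib 3.10.9. They cover counting of peaks only. The steps were tested on simulated data with planted members. The members and the lists of named regions (highest score, widest, smallest and largest gap, highest score over the neighbour, most members, H3K9me3 overlap) were chosen with earlier results of these data known. Another 6 settings were tried, with other overlaps, other distance limits, the top-scoring 50% of peaks and joined H3K4me3 peaks.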

Additional observations from a re-analysis of the deposited data

How the results depend on the processing

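The 8 values were recomputed under 6 other settings. In 30 of 48 combinations a value stayed within the 95% interval of the value reported, or the count within 1.5 times, and 18 moved further. An overlap of at least 50% of the shorter peak moved only the share of members with H3K27me3 under 5 kb away, to 8.08%. Counting peaks up to 200 bp apart as shared moved only the share of acetylated peaks with a member, to 12.3%. A distance limit of 2 kb gave a share of 9.87% and a median gap of 310 bp, and one of 10 kb gave 17.4% and 1381 bp, as the limit itself sets these values. With the top-scoring 50% of peaks of every list all 8 values moved. The H3K9Ac and H3K27me3 lists were cut as well, and 4989 H3K4me3 peaks then counted as acetylated. A member in this setting can overlap a dropped peak, so its values describe another set of peaks. There were 254 members, a median width of 2619.5 bp, a median score of 637.3, a median gap of 873 bp, 66.1% outscored, 5.03% of acetylated peaks with a member, 66.9% with H3K9Ac on the near side and 1.97% with H3K27me3 under 5 kb away. Joining H3K4me3 peaks less than 1 kb apart gave 446 members, a median width of 1529 bp, a median gap of 2609.5 bp and 4.93% of acetylated peaks with a member. In this setting short gaps are removed by construction. Members were the weaker peak of most pairs under all 6 settings, with shares from 66.1% to 83.2%. Joined peaks took the highest score of their parts, so the share in that setting depends on the joining as well. No paired analysis was possible because each mark has 1 deposited list for both of its libraries, and for the same reason no library could be left out. Depth is unknown, and weak acetylation below the lowest score of the H3K9Ac list cannot be seen.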

Other observations

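Outside chromosomes 1 to 8 the same rule found few peaks. On X it found 6 among 144 H3K4me3 peaks without H3K9Ac and H3K27me3 (4.17%, exact 95% interval 1.54% to 8.85%), with 75 acetylated H3K4me3 peaks on that chromosome, and 2 of the 6 lay under 500 bp from their neighbour. Their median width was 1221 bp and their median score 71.2. On unplaced sequence it found 22 among 988 such peaks (2.23%, 1.40% to 3.35%), of which 8 had a gap under 500 bp. Acetylated H3K4me3 peaks numbered 150 there.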
